A study of Mus musculus with 4 samples.

Results

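Plasmacytoid dendritic cells made up cluster 16 of the CD45+ cells that were isolated from transplanted mouse tumours and profiled by single-cell RNA sequencing. The members were the cells that the authors' deposited cell table places in graph cluster 16, matched to the count matrices by library and by the barcode before the dash. There were 157 of them among 14491 listed cells, or 1.08%. They comprised 36 cells from mice given anti-PD-1, 29 cells from mice given anti-CTLA-4, 35 cells from mice given both antibodies and 57 cells from mice given rat IgG2a isotype control antibody. All mice were 129S6 animals labelled wild type (wt), and antibody was given into the peritoneum at 200 µg on days 3, 6 and 9 after tumour transplant. Both antibodies block receptors that restrain T cells. Each group was 1 library of sorted cells, and the labels do not say how many mice a library holds. Differences between antibodies therefore had no replicate check and carry no p-value, and antibody, library and animals cannot be told apart.

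Plasmacytoid dendritic cells are a rare dendritic cell lineage known for making large amounts of type I interferon when the endosomal receptors TLR7 and TLR9 meet viral or self nucleic acids. Their identity depends on the E protein transcription factor Tcf4, which binds E-box motifs, and is opposed by the inhibitor Id2, which conventional dendritic cells express. At rest they resemble small secretory lymphocytes, with a developed endoplasmic reticulum and little of the machinery that conventional dendritic cells use to prime T cells. In tumours they have been described both as sources of interferon and as cells in a quiescent or tolerogenic state.

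The promoter regions of 3 of the leading genes are shown, the highest ranked against all other cells among those with a RefSeq promoter entry. Siglech encodes the mouse plasmacytoid sialic acid-binding lectin Siglec-H, Cd209d a lectin receptor of the DC-SIGN family, and Klk1b27 a member of the kallikrein protease family. Each window runs from 250 to 51 bases before the RefSeq start (GRCm38.p6) and is printed 5′ to 3′ on the gene's strand, with E-box matches (CANNTG, read on both strands) in capitals. The Siglech window is chr7:55767934-55768133 on the plus strand, the Cd209d window is chr8:3878550-3878749 on the minus strand, and the Klk1b27 window is chr7:44052040-44052239 on the plus strand.
Siglech: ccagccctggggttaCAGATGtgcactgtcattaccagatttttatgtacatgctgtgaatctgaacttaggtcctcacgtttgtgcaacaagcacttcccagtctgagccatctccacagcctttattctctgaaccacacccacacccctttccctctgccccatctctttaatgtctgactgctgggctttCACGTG
Cd209d: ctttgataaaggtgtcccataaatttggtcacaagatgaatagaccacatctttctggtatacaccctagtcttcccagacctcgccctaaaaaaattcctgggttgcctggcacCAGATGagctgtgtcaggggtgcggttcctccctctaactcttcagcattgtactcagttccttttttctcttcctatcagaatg
Klk1b27: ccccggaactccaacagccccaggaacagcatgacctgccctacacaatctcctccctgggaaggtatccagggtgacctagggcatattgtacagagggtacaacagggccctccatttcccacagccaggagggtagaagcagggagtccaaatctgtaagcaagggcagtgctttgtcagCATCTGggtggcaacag
The Siglech window held 2 E-box matches, and 24.3% of the 32851 promoter windows of this length in the table held at least as many. The Cd209d and Klk1b27 windows held 1 match each, and 59.0% of all windows held at least 1. A match is a match of letters and no evidence of binding.

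The listed cells held 11176246 to 13374294 unique molecular identifiers (UMIs, each counting 1 captured RNA molecule) per library, and the cluster 16 cells held 124976 UMIs in the anti-PD-1 library, 104424 in the anti-CTLA-4 library, 109503 in the combination library and 236714 in the control library. One UMI in cluster 16 thus stood for 8.002, 9.58, 9.13 and 4.22 CPM (counts per 1e6 UMIs of the cluster) in those libraries. A cluster 16 cell had a median of 3216 UMIs and 1403 genes, against 2811 UMIs and 1083 genes for all listed cells. Levels are given below as the CPM of the summed UMIs of a cluster in a library, always in the order anti-PD-1, anti-CTLA-4, combination and control. Across libraries, 218 listed cells shared a barcode with a listed cell of another library, 2 of them in cluster 16.

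Some cluster 16 cells also carried RNA of other cell types. In 28 of the 157 cells, 5 or more UMIs came from the macrophage genes C1qa, C1qb and C1qc, which encode a complement component, or from the T cell receptor complex genes Cd3d, Cd3e and Cd3g. They were 5 of 36 anti-PD-1 cells, 3 of 29 anti-CTLA-4 cells, 1 of 35 combination cells and 19 of 57 control cells. Of them, 18 passed that number with C1q genes alone and 10 with Cd3 genes alone. These 28 cells had a median of 6287 UMIs, against 3011 for the other 129 cells, and all 28 had a Siglech UMI. Their summed level was 656 CPM for Siglech, 12960 CPM for the MHC class II gene H2-Ab1 and 7902 CPM for the macrophage lysozyme gene Lyz2, against 1618, 4067 and 1450 CPM in the other 129 cells. Low C1q signal was widespread in the data. At least 1 C1q UMI was seen in 51.6% of cluster 16 cells, against 54.4% of cluster 11, 88.0% of the macrophage-like clusters (1, 2, 4, 7 and 15), 30.9% of the T cell-like clusters (3, 6, 8, 9 and 10) and 28.2% of the natural killer cell-like cluster 5. Whether the 28 droplets held more than 1 cell was not tested. Most results that turn on them are given with and without them, a choice made after seeing the data.

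Genes in the comparisons between clusters were called when the mean log2 ratio over the 4 libraries, after adding 10 CPM to both levels, was at least 1 or at most -1 and had the same sign in every library. Only genes with at least 20 UMIs over the compared cells entered, and the added 10 CPM understates the ratio of genes near 0. Because the clusters had been drawn from these same counts, the ratios between clusters are descriptions and were not tested. Of 12399 genes compared with all other cells, 562 (4.53%) were called higher and 675 (5.44%) lower. Of 6714 genes compared with dendritic cluster 11 (349 cells), 642 (9.56%) were called higher in cluster 16 and 374 (5.57%) lower. Of 5199 genes compared with dendritic cluster 17 (132 cells), 1048 (20.2%) were called higher in cluster 16 and 489 (9.41%) lower. Of 10 plasmacytoid markers, 9 were called higher than in all other cells and Irf7 was not, and 4 stood among the 10 leading genes. Siglech, Bst2 and Irf7 are among these markers and came with the label, so the count is no independent check of it. Among the 3681 genes with at least 20 UMIs in cluster 16, 811 had their highest level of all 19 clusters there.

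Cluster 16 cells were a smaller share of listed cells in each antibody library than in the control library. The share was 1.05% (exact 95% binomial interval 0.739 to 1.46%) after anti-PD-1, 0.869% (0.583 to 1.25%) after anti-CTLA-4, 0.887% (0.619 to 1.23%) with both and 1.503% (1.14 to 1.94%) in control. The ratio to control was 0.701 (0.449 to 1.08) for anti-PD-1, 0.578 (0.357 to 0.920) for anti-CTLA-4 and 0.590 (0.376 to 0.915) for the combination, where the intervals cover counting error only. All 3 ratios were below 1, and that of anti-PD-1 had an interval reaching above 1. Without the 28 cells with RNA of another type, 31, 26 and 34 cells remained in the antibody libraries and 38 in control. The shares were then 0.907%, 0.779% and 0.862%, against 1.00% in control, and the ratios 0.906 (0.545 to 1.49), 0.778 (0.454 to 1.32) and 0.860 (0.525 to 1.40), with every interval reaching above 1. As a share of the 3 dendritic clusters 11, 16 and 17, plasmacytoid cells made up 24.8% (18.03 to 32.7%) after anti-PD-1, 19.7% (13.6 to 27.1%) after anti-CTLA-4, 19.9% (14.3 to 26.6%) with both and 33.5% (26.5 to 41.2%) in control, with all members. The share of the dendritic clusters was not computed without the 28 cells, 19 of which were control cells.

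**Figure D1:**
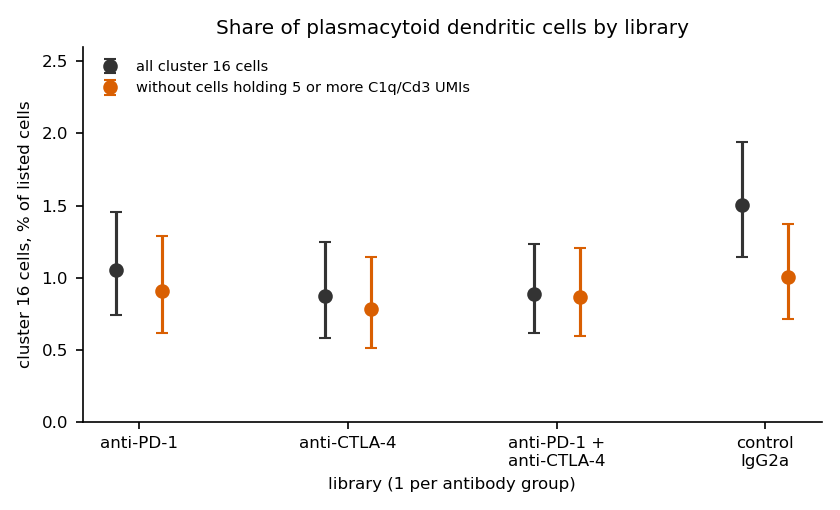
Share of cluster 16 among listed cells (percent) in each library, for all 157 members and without the 28 cells that held 5 or more C1q or Cd3 UMIs; bars on the points are exact 95% binomial intervals. The control share is 1.503% with all members and 1.00% without those cells, while the antibody libraries lie between 0.779 and 1.05% in both versions.

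The genes that set cluster 16 furthest apart were plasmacytoid surface and secreted genes. Siglech had 960.2, 1503, 1315 and 1432 CPM in cluster 16, against 0.814, 0.720, 0.768 and 0.837 CPM in all other cells, a mean log2 ratio of 6.91. All 4 libraries were far above the other cells. No Siglech UMI was counted in cluster 17, which puts Siglech at least 216-fold higher in cluster 16 at a floor of 3 counts over cluster 17. Ly6d, which encodes a GPI-anchored surface protein also known from lymphoid progenitors, had 2352, 3141, 1689 and 1365 CPM, against 2.99, 2.97, 2.05 and 6.32 CPM (log2 ratio 7.24). Ly6d was present at 57.3 to 128 CPM in cluster 11, which still left a log2 ratio of 4.58 between cluster 16 and cluster 11. Of cluster 11 cells, 6.02% had a Ly6d UMI, 1.43% a Siglech UMI and 5.73% a UMI of the B cell marker Cd79a. Whether the cells with Ly6d were those with Cd79a was not tested. Cd209d had 1304, 1149, 1579.9 and 1149 CPM, against 7.24, 6.84, 4.01 and 1.60 CPM in all other cells (log2 ratio 6.46). The kallikrein genes Klk1b27 (log2 ratio 5.54) and Klk1 (5.42) belong to a family of near-identical copies, so reads may have been split or dropped among them. Neither had a UMI in the 349 cells of cluster 11, which puts Klk1b27 at least 238-fold and Klk1 at least 208-fold higher at the same floor over cluster 11.

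Other leading genes came from several functions. Cox6a2, a heart and muscle isoform of a cytochrome c oxidase subunit, had 1264, 1101, 813 and 659 CPM in cluster 16, against 1.63, 2.61, 0.683 and 5.86 CPM in all other cells (log2 ratio 6.23). Every cluster 16 library was far above every library of other cells. Atp1b1, the beta subunit of the sodium-potassium pump, and Tsc22d1, a leucine zipper transcriptional regulator, had log2 ratios of 4.99 and 5.18. Paqr5, Smim5, Cd59a, Pir, Gfra3, Lefty1, Upb1, Rnase6, Pacsin1 and Clec10a completed the 20 leading genes, with log2 ratios of 4.31 for Clec10a to 5.30 for Paqr5. Of the 20, 16 were on the list of plasmacytoid surface and secreted genes, and Clec10a, a lectin, also stands on the list of type 2 conventional dendritic cells. On the whole surface and secreted list, 34 of 39 genes in the matrix were called higher and 0 lower, with a median log2 ratio of 3.67, against -0.07 over all genes compared. That list was chosen with earlier results of these data known, so its count is no independent evidence. Of the 562 genes called higher, 423 had a promoter in the RefSeq table, and 239 of their windows (56.5%) held at least 1 E-box, against 59.0% of all windows.

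**Figure D2:**
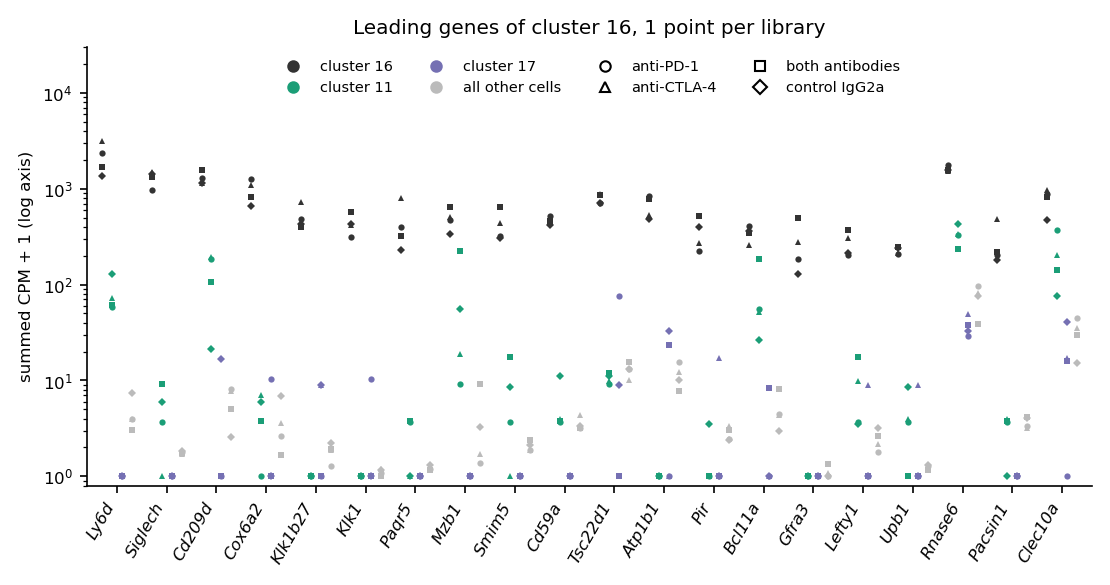
Summed CPM plus 1 of the 20 leading genes in cluster 16, cluster 11, cluster 17 and all other cells on a log axis, with 1 point per library and a shape for each antibody group. Points at the foot of the axis stand for no UMI. Siglech lies between 960.2 and 1503 CPM in cluster 16 and below 10 CPM in the other cells shown.

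Bst2 and Irf7, the remaining defining markers, were less restricted than Siglech. Bst2, which encodes the tetherin antigen PDCA-1 and is also interferon-inducible, had 3225, 3084, 3397 and 2885 CPM, against 283, 271, 233 and 232 CPM in all other cells (log2 ratio 3.58). The cluster with the next highest Bst2 level was cluster 18, with 1203 CPM. Irf7, the transcription factor that drives interferon-alpha genes, had 288, 249, 310.5 and 355 CPM, against 254, 243, 175 and 222 CPM in all other cells (log2 ratio 0.41). Cluster 16 had rank 4 among the 19 clusters for Irf7, and cluster 7 had the highest level with 959 CPM. Against cluster 17, Irf7 was called higher with a log2 ratio of 1.37.

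The individual cells were not uniform for these markers. A Siglech UMI was seen in 92.99% of cluster 16 cells, a Bst2 UMI in 98.7%, a Cd209d UMI in 90.4% and an Ly6d UMI in 66.2%. Siglech was seen in 0.231% of macrophage-like and 0.157% of T cell-like cluster cells, whose median depths were 3595 and 1932 UMIs, against 3216 UMIs in cluster 16. When each cell was thinned to 1000 UMIs (155 of 157 cells were deep enough), the cluster 16 shares were 67.7% for Siglech, 62.6% for Cd209d and 50.97% for Ly6d. By library, Siglech was seen in 30 of 36 anti-PD-1 cells, 26 of 29 anti-CTLA-4 cells, 33 of 35 combination cells and 57 of 57 control cells. Dntt, which encodes the terminal transferase of lymphoid progenitors, had 120.0, 95.8, 100.5 and 144 CPM and was seen in 28.7% of cluster 16 cells. No Dntt UMI was counted in any other listed cell, which puts its level at least 1906-fold higher in cluster 16 at a floor of 3 counts.

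Several transcription factors of the plasmacytoid programme were high. Of 17 listed plasmacytoid factors, 9 were called higher, 2 lower and 6 neither against all other cells, with a median log2 ratio of 1.02. Tcf4 had 656, 929, 676 and 587 CPM, against 29.7, 34.5, 18.6 and 51.4 CPM in all other cells (log2 ratio 4.08), and the next highest cluster was cluster 11. Bcl11a, which acts upstream of Tcf4, had 408, 259, 347 and 359 CPM, against 3.44, 3.33, 7.08 and 1.98 CPM (log2 ratio 4.66). For both genes every cluster 16 library lay above every library of other cells. Spib, an ETS family factor, and Mef2c, a MADS box factor, had log2 ratios of 3.89 and 3.14. Runx2, which is needed for plasmacytoid cells to leave the bone marrow, had a log2 ratio of 2.72, but 51.3% of its anti-PD-1 UMIs came from 1 cell. Irf8 had 2777, 3093, 3388 and 1986 CPM, against 369, 403, 339 and 260.4 CPM in all other cells (log2 ratio 2.99), and was also called higher than in clusters 11 (1.72) and 17 (1.33).

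Most factors of conventional dendritic cell fate were not called. Of 9 listed, 1 was called higher, 2 lower and 6 neither against all other cells (median log2 ratio -0.78), with the same counts against cluster 11, and 1 of 8 was higher and 5 lower against cluster 17. Id2, an inhibitor of E proteins, and Batf3 were the lower genes against all other cells. Id2 had 280.1, 57.5, 128 and 173 CPM in cluster 16, against 935, 1085, 1231 and 709.8 CPM in all other cells (log2 ratio -2.72). The libraries did not overlap, and Id2 was also called lower against cluster 11 (-2.78) and cluster 17 (-3.60). Batf3, a factor of type 1 conventional dendritic cells, was represented by 2 UMIs in cluster 16, against 118 to 222 CPM in cluster 11. Id3, a paralog of Id2, had 64.0, 421, 109.6 and 71.8 CPM and a log2 ratio of 2.81 to all other cells. The high Id3 value in the anti-CTLA-4 library came largely from 1 cell, which held 84.1% of its UMIs.

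Genes of endosomal nucleic acid sensing were partly higher. Of 20 listed genes, 6 were called higher and 1 lower, with a median log2 ratio of 0.11. Pld4, an endosomal nuclease that trims nucleic acids reaching TLR9, had 1488, 1484, 1589 and 1077 CPM, against 244, 274, 177 and 351 CPM in all other cells (log2 ratio 2.41). Hsp90b1, the chaperone that folds Toll-like receptors, had 816, 862, 1589 and 942 CPM, against 393, 313, 317 and 371 CPM (log2 ratio 1.52). Both genes were higher in cluster 16 in all 4 libraries without overlap. Unc93b1, which carries TLR7 and TLR9 to endosomes, reached 667 to 852 CPM, against 372 to 487 CPM in all other cells, a log2 ratio of 0.78 that was not called. It was called higher than in cluster 11 (1.06) and cluster 17 (2.65).

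The receptors themselves were at the edge of detection. Tlr7 had 21 UMIs in cluster 16, which gave 32.0, 19.2, 36.5 and 46.5 CPM, against 8.05, 7.47, 10.1 and 10.7 CPM in all other cells (log2 ratio 1.15). A Tlr7 UMI was seen in 10.8% of cluster 16 cells, against 4.79% of macrophage-like and 0.366% of T cell-like cluster cells, and in 7.10%, 1.41% and 0.112% of them when thinned. Tlr9 had no UMI in cluster 16 and 25 in all other listed cells, and a count of 0 allows up to 5.21 CPM or 1.91% of cells with a UMI. Slc15a4, a lysosomal transporter needed for endosomal Toll-like receptor signalling, had 448, 105, 109.6 and 42.2 CPM, and in the anti-PD-1 library 1 cell held 91.1% of its UMIs. Its log2 ratio to all other cells was 2.01, and 1.40 without the 28 cells.

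No interferon transcript was counted in cluster 16. All 19 listed type I and type III interferon genes that the matrix holds had 0 UMIs there, and a count of 0 again allows up to 5.21 CPM for each. Ifnb1 had 21 UMIs in all other listed cells. The interferon-alpha genes are near-identical copies whose reads may have been dropped in counting. The receptor for type I interferon was higher: Ifnar2 had 544, 642, 502 and 418 CPM, against 122, 117, 127 and 136 CPM in all other cells (log2 ratio 1.97), and Ifnar1 had a log2 ratio of 1.15. Both were also called higher than in cluster 11 (2.34 for Ifnar2 and 1.30 for Ifnar1). Of 12 genes of interferon receptors and their signalling, 3 were called higher and 1 lower. The third higher gene was Stat2 (1.52), which carries the type I interferon signal, and the lower gene was Ifngr1 (-1.73), a chain of the interferon-gamma receptor.

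Interferon-stimulated genes were split. Against all other cells, 3 of 39 listed genes were called higher and 9 lower, with a median log2 ratio of -0.64. The higher ones were Bst2, Stat2 and Trim30a (1.14), and the lower ones included Ifitm3, an antiviral membrane protein. Ifitm3 had 472, 278, 228 and 760.4 CPM in cluster 16, against 2709, 2094, 1668 and 2131 CPM in all other cells (log2 ratio -2.41). Every cluster 16 library lay below every library of other cells. Isg15, a ubiquitin-like protein, had 168, 220.3, 63.9 and 211 CPM, against 290.1, 306, 236 and 202 CPM, and its log2 ratio of -0.72 was not called. The same list had a median of -0.10 against cluster 11, with 4 of 35 called higher and 4 lower. Against cluster 17 the median was 0.59, with 7 of 29 higher and 2 lower. All compared genes had medians of 0.11 against cluster 11 and 0.33 against cluster 17. Of them, 9.56% were called higher and 5.57% lower against cluster 11, and 20.2% and 9.41% against cluster 17.

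**Figure D3:**
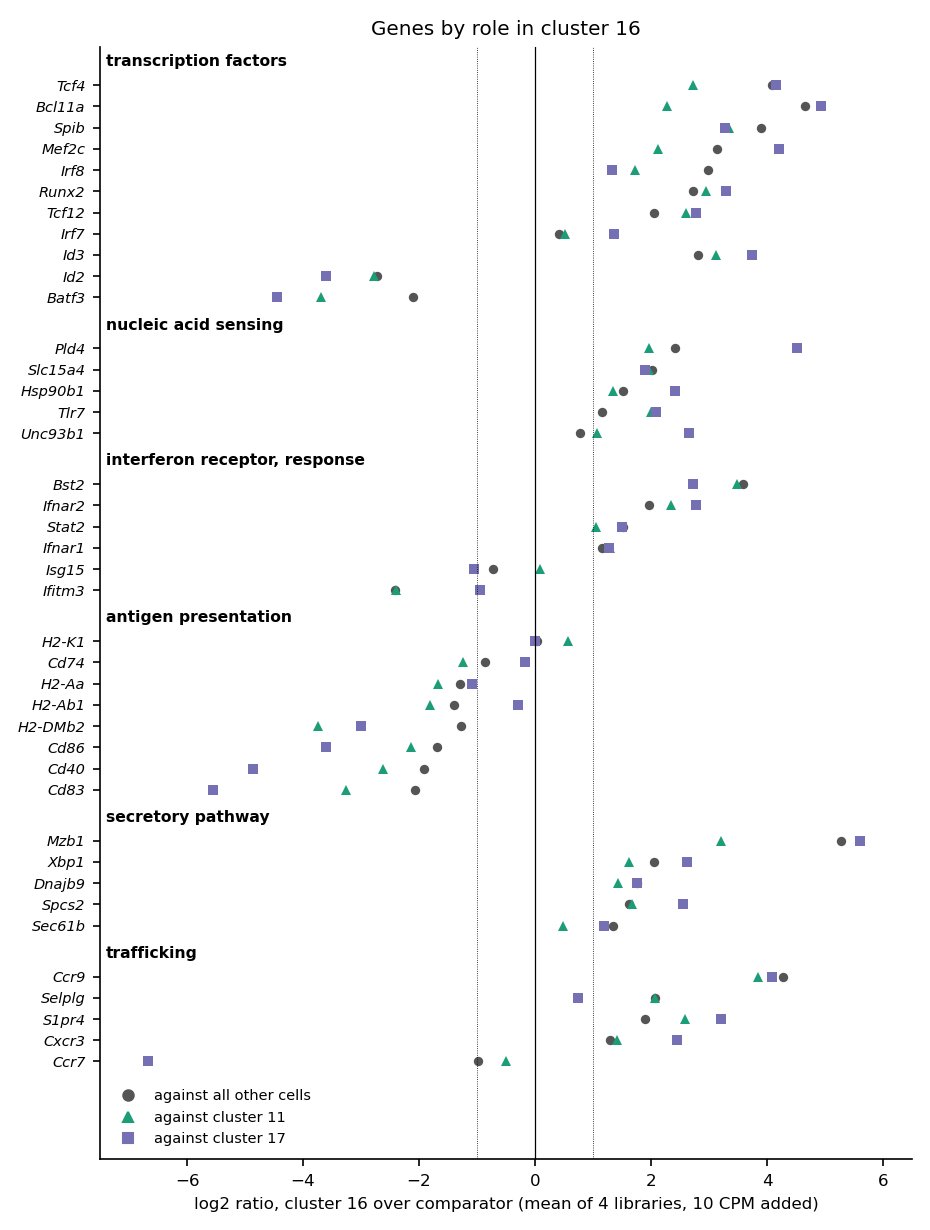
Mean log2 ratio of cluster 16 to all other cells, cluster 11 and cluster 17 for genes grouped by role, after adding 10 CPM, with dotted lines at -1 and 1. Points against a cluster without a UMI of the gene (such as Tlr7 against cluster 17) depend on the added 10 CPM. Factors such as Tcf4 (4.08 against all other cells) lie to the right of 0, while Id2 (-2.72), Batf3 and H2-Ab1 (-1.40) lie to the left.

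Genes of antigen presentation by MHC class II were lower than in all other cells. Of 11 listed class II genes, 0 were called higher and 6 lower than in all other cells, with a median log2 ratio of -1.23. H2-Ab1 had 3257, 7881, 3982 and 9552 CPM, against 15683, 14678, 14356 and 14568 CPM, a log2 ratio of -1.40. The anti-CTLA-4 and control libraries were well above the other libraries in cluster 16, yet below every library of other cells. With the 28 cells left out the ratio was -1.86, with cluster 16 levels of 3693 to 4273 CPM. Cd74, the invariant chain, had 12762, 23826, 14913 and 26281 CPM, against 36534, 32849.9, 31332 and 34642 CPM (log2 ratio -0.86, not called). The class II genes are members of a family with similar sequences.

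Against dendritic cluster 11, 9 of the 11 class II genes were called lower, with a median log2 ratio of -1.67, and they included genes of peptide loading. H2-DMb2, part of the peptide exchange factor H2-DM, had 40.0, 38.3, 54.8 and 42.2 CPM in cluster 16, against 665, 689, 676 and 804 CPM in cluster 11 (log2 ratio -3.74). Cst3, the cathepsin inhibitor cystatin C, had 2224, 2021, 1626 and 2231 CPM, against 20172, 24218, 18116 and 21385 CPM in cluster 11 (-3.37). Both genes separated the clusters in all 4 libraries by a wide margin. Naaa, a lysosomal amidase, had a log2 ratio of -4.79. The lowest gene among those seen in at least 25% of cluster 11 cells was Plet1, a surface protein, with 1 UMI in cluster 16, against 381 to 758 CPM in cluster 11 (-5.58). Ctsl, the lysosomal protease cathepsin L, was higher instead, with 1376, 1809.9, 1452 and 1259 CPM, against 40.9, 44.9, 69.0 and 47.7 CPM in cluster 11 (log2 ratio 4.62). Against cluster 17, 1 class II gene was called higher and 5 lower, and the median was -0.30. MHC class I was close to all other cells: of 17 genes 0 were called higher and 1 lower, and the median was 0.01.

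Costimulation was low, most of all beside cluster 17, whose cells express the migratory dendritic cell genes Ccr7 and Fscn1. On the costimulation and checkpoint list, 4 of the 18 genes compared with cluster 17 were called higher in cluster 16 and 9 lower. Of all genes compared with cluster 17, 20.2% were called higher and 9.41% lower. Cd86, a ligand of CD28 and CTLA-4, had 16, 57.5, 18.3 and 54.9 CPM in cluster 16, against 592, 960.3, 369.8 and 310.5 CPM in cluster 17 (log2 ratio -3.61) and 161, 195, 108 and 284 CPM in cluster 11 (-2.14). It was seen in 9.55% of cluster 16 cells, against 62.1% of cluster 17 and 5.46% of T cell-like cluster cells. Thinned to 1000 UMIs, the shares were 1.94%, 31.1% and 2.49%, so that the cluster 16 share lay at the level of background. Cd40, a receptor for T cell help, had 6 UMIs in cluster 16, against 423 to 637 CPM in cluster 17 (log2 ratio -4.86). All 12 genes of the migratory list were called lower against cluster 17. Ccr7, the lymph node homing receptor, had 16, 9.58, 18.3 and 8.45 CPM in cluster 16, against 2518, 2800.1, 1916 and 2109.7 CPM (log2 ratio -6.68). Ccl22 had 1 UMI in cluster 16, and the other chemokine Ccl17 had none, which puts it at least 324-fold lower than in cluster 17.

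A few costimulation and checkpoint genes were higher. Of 23 genes on the costimulation and checkpoint list, 4 were called higher and 10 lower than in all other cells. Lag3, an inhibitory receptor that binds MHC class II, had 328, 508, 438 and 291 CPM, against 127, 113, 113 and 129 CPM in all other cells, which include T cells (log2 ratio 1.59). The log2 ratio of Lag3 was 3.60 against cluster 11 and 3.04 against cluster 17. Cd47, the signal that inhibits phagocytosis, had 1248, 1130.0, 1142 and 1145 CPM, against 465, 521, 502 and 462 CPM (log2 ratio 1.24). Cd200r1 (2.24) and Btla (1.66) were the other genes called higher, both inhibitory receptors. Cd274, which encodes PD-L1, had 32.0, 38.3, 100.5 and 59.1 CPM, against 183, 189, 205 and 74.7 CPM in all other cells (log2 ratio -1.38). Gzmb, the protease granzyme B that human plasmacytoid cells also make, had 256, 0, 9.13 and 368 CPM, and single cells held 75% of the anti-PD-1 UMIs and 64.4% of the control UMIs.

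Secretory pathway genes were higher as a group. Of 30 listed genes of the endoplasmic reticulum and secretion, 14 were called higher and 0 lower than in all other cells, all 30 had a positive log2 ratio, and the median was 0.98. Mzb1, an endoplasmic reticulum chaperone of plasma cells and plasmacytoid cells that also stands on the surface and secreted list, had 472, 508, 639 and 334 CPM, against 0.362, 0.720, 8.11 and 2.28 CPM (log2 ratio 5.28). Xbp1, the transcription factor of the unfolded protein response, had 488, 661, 822 and 376 CPM, against 164, 116, 118 and 119.9 CPM (log2 ratio 2.05). Spcs2, a subunit of signal peptidase, had 1264, 1503, 1151 and 769 CPM, against 379, 353, 352 and 379 CPM (log2 ratio 1.61). For these 3 genes the lowest library of cluster 16 exceeded the highest of other cells. Against cluster 11 the list gave 11 of 28 higher and 0 lower (median 0.67), and against cluster 17 19 of 28 higher and 0 lower (median 1.66). Leaving these 28 cells out, 19 of the 30 genes were called higher than in all other cells.

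Homing receptors were mixed. Of 21 trafficking genes compared with all other cells, 5 were called higher and 6 lower. Ccr9, the gut and thymus homing receptor that marks resting plasmacytoid cells, had 200.0, 172, 210.0 and 177 CPM, against 0.181, 0.270, 0.427 and 0.0761 CPM (log2 ratio 4.28). Its 4 values lay within a narrow range, and it was seen in 45.2% of cluster 16 cells. Selplg, the selectin ligand PSGL-1, Cxcr3, a receptor for interferon-induced chemokines, and S1pr4, a sphingosine-1-phosphate receptor, had log2 ratios of 2.07, 1.29 and 1.89. Cxcr4, the bone marrow retention receptor, was among the lower genes (-1.31).

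The remaining groups mostly showed lower levels. Of 19 cytokine and chemokine genes, 0 were called higher and 8 lower than in all other cells, and Tnf, Il6, Il12b and Ccl17 had no UMI in cluster 16, which puts Tnf at least 4.46-fold lower. Ccl5, a T cell chemoattractant, had 144, 393, 329 and 482 CPM, against 2729, 2059, 2401 and 1433 CPM (log2 ratio -2.72). Of 20 proliferation genes, 0 were higher and 14 lower, with Stmn1 at -3.48. Of 23 glycolysis and hypoxia genes, 0 were higher and 11 lower (median -1.09), and Tpi1, a glycolytic enzyme, had a log2 ratio of -1.84. Of 20 immediate early and stress genes, 0 were higher and 9 lower (median -1.02). Against cluster 17, 5 of 18 were higher and 3 lower, where 20.2% and 9.41% of all genes were. Ribosomal protein genes had a median of -0.05, with 0 of 22 called, and the 11 genes encoded by mitochondrial DNA had a median of 0.66, with mt-Nd1 (1.02) the gene called.

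Macrophage and natural killer cell markers were low beside all other cells, while neutrophil and dendritic cell markers were mixed. Among genes seen in at least 25% of the other cells, the 10 lowest were the chemokines Ccl8 (log2 ratio -3.78), Ccl6 (-3.38) and Ccl9 (-2.85), the metallothionein Mt1 (-3.55), the cytotoxic granule gene Nkg7 (-3.52), C1qa (-3.18), C1qb (-3.04), Ms4a7 (-3.16), the lipid carrier Fabp5 (-2.93) and Lst1 (-2.81). Of 12 macrophage and monocyte markers, 12 were called lower than in all other cells. Their summed level in cluster 16 was 1680, 6972, 2164 and 13096 CPM, against 18797 to 24795 CPM in all other cells, so the anti-CTLA-4 and control libraries stood above the other libraries. Against cluster 17, 2 macrophage markers were called higher and 0 lower (median 1.18, and -0.17 without the 28 cells). Against cluster 11, 1 was higher and 0 lower (median -0.50). Of 8 natural killer cell markers, 8 were lower than in all other cells. Of 10 T cell markers, 6 were lower than in all other cells and Il7r, a receptor of lymphoid progenitors and T cells, was higher (1.77). Their summed level was 804 to 1304 CPM, against 1273 to 1939 CPM. Against cluster 11 all 10 had positive log2 ratios, with 4 called higher and 0 lower (median 1.21, and 0.12 without the 28 cells). Against cluster 17, 2 were higher and 1 lower (median -0.34). Of all genes, 9.56% were called higher and 5.57% lower against cluster 11, and 20.2% and 9.41% against cluster 17. Of 10 B and plasma cell markers, 8 had no UMI in cluster 16, among them Cd79a, Ms4a1 and Pax5. Cd79b was called higher than in all other cells (2.44). Neutrophil markers summed to 288, 47.9, 1443 and 879 CPM in cluster 16, against 661, 473, 1072 and 542 CPM in all other cells, so that the combination and control libraries lay above the other cells and the single-antibody libraries below. Of 8 neutrophil markers, 0 were called higher and 1 lower than in all other cells, and against cluster 11 2 of 4 were higher and 1 lower. The higher ones encode the calprotectin subunits, S100a8 (2.99) and S100a9 (3.47), and without the 28 cells only S100a8 was called (3.198). The 9 markers of type 2 conventional dendritic cells in the matrix summed to 1597 to 2499 CPM, against 344 to 590.2 CPM in all other cells, and 3 of 8 compared were called higher and 1 lower. Of 12 markers of type 1 conventional dendritic cells, Irf8, Cadm1 (2.57) and Cd24a (2.05) were higher than in all other cells, and 9 of the 12 were lower than in cluster 11. Tumour and fibroblast markers summed to at most 38.0 CPM. The part of such RNA in the results was not tested beyond the values without the 28 cells.

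**Figure D4:**
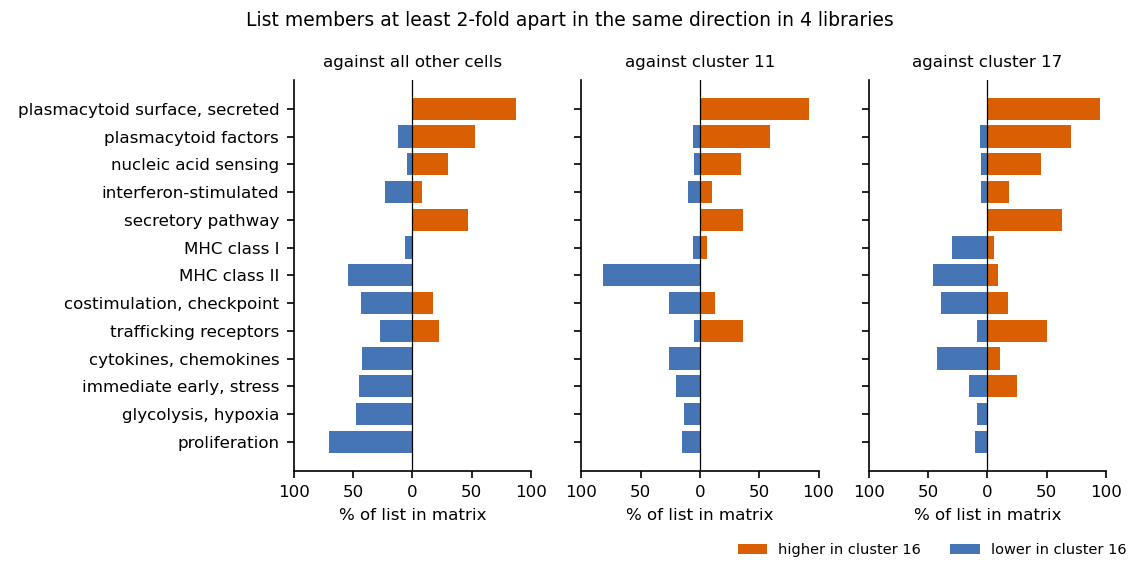
Percent of the genes of each list in the matrix that were called higher (right) or lower (left) in cluster 16 than in all other cells, cluster 11 and cluster 17. The surface and secreted list has 34 of 39 genes higher against all other cells, and the MHC class II list has 9 of 11 genes lower against cluster 11.

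Between antibody libraries, macrophage and MHC class II genes were lower inside cluster 16 after anti-PD-1 and with both antibodies than in control, and the class II genes lay close to control without the 28 cells. Here a gene was called when the log2 ratio to control was at least 1 or at most -1, after adding 0.5 to each count, among genes with at least 20 UMIs in both libraries together. With anti-PD-1, 195 of 2642 genes (7.38%) were called higher and 246 (9.31%) lower. With anti-CTLA-4, 147 of 2495 (5.89%) were higher and 225 (9.02%) lower, and with both antibodies 185 of 2546 (7.27%) were higher and 242 (9.51%) lower. When the 28 cells were left out, 112 higher and 96 lower of 1667 were called for anti-PD-1, 98 and 101 of 1552 for anti-CTLA-4, and 128 and 107 of 1663 for the combination. The 3 comparisons share the control library.

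Macrophage markers were among the lower calls. All 10 macrophage markers that could be compared were called lower after anti-PD-1, 5 of 11 after anti-CTLA-4 and 8 of 10 with both. Ms4a7, a macrophage membrane protein, had 0 UMIs after anti-PD-1 and 101 in control, and C1qa had 4 UMIs after anti-PD-1 and 409 in control. The chemokine gene Ccl7 had 0 UMIs after anti-CTLA-4 and 0 with both antibodies, against 116 in control, and Cxcl13, a B cell chemoattractant, had 0 in all 3 antibody libraries, against 81 in control. These lower calls were lost without the 28 cells, which were picked by their C1q and Cd3 UMIs. The fall of C1qa and C1qb, both on the macrophage list, was thus fixed by that choice. Only 2 of the macrophage markers then reached 20 UMIs, and 0 were called lower in any antibody library, while 0 were called higher after anti-PD-1, 1 after anti-CTLA-4 and 1 with both. Ms4a7 then had 0 UMIs after anti-PD-1 and 0 in control, and C1qa had 3 and 7. Ccl7 had 0 after anti-CTLA-4, 0 with both antibodies and 0 in control, and Cxcl13 had 0 in all 3 antibody libraries and 2 in control.

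MHC class II differed between libraries with all members. With anti-PD-1, 5 of 7 class II genes compared were called lower than in control, after anti-CTLA-4 0 of 7, and with both antibodies 4 of 8, with 1 higher. H2-Ab1 had 3257 CPM after anti-PD-1, 7881 after anti-CTLA-4 and 3982 with both, against 9552 CPM in control. The log2 ratios were -1.55 (95% interval -1.71 to -1.40) for anti-PD-1, -0.28 (-0.39 to -0.16) for anti-CTLA-4 and -1.26 (-1.41 to -1.11) for the combination. With the 28 cells left out H2-Ab1 had 3693, 4216 and 4273 CPM, against 4108 CPM in control, and the log2 ratios were -0.15 (-0.35 to 0.05), 0.04 (-0.17 to 0.24) and 0.06 (-0.14 to 0.25). Every one of those intervals included 0. In all other cells the H2-Ab1 log2 ratios were 0.11, 0.01 and -0.02.

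The ratios of Irf8 and Siglech also moved when those cells were left out. Irf8 was above control by a log2 ratio of 0.48 (0.28 to 0.69) after anti-PD-1, 0.64 (0.43 to 0.85) after anti-CTLA-4 and 0.77 (0.57 to 0.97) with both antibodies. Leaving these 28 cells out, the values were 0.03 (-0.20 to 0.26), 0.18 (-0.06 to 0.41) and 0.26 (0.04 to 0.48), and in all other cells they were 0.50, 0.63 and 0.38. Siglech differed from control by -0.57 (-0.89 to -0.27) after anti-PD-1, 0.07 (-0.21 to 0.35) after anti-CTLA-4 and -0.12 (-0.41 to 0.16) with both. When the 28 cells were left out, Siglech had 1032, 1715 and 1398 CPM in the antibody libraries, against 2273 CPM in control, with log2 ratios of -1.13 (-1.48 to -0.80), -0.40 (-0.71 to -0.11) and -0.70 (-1.01 to -0.40). Siglech was then below control in all 3 libraries, and Bst2 likewise by a log2 ratio of -0.31, -0.31 and -0.32.

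Ly6d was above control in both single-antibody libraries with and without those cells. It had 2352 CPM after anti-PD-1, 3141 after anti-CTLA-4 and 1689 with both antibodies, against 1365 CPM in control. The log2 ratios were 0.79 (0.55 to 1.02), 1.20 (0.98 to 1.43) and 0.31 (0.04 to 0.57), and without the 28 cells 0.61 (0.34 to 0.87), 0.98 (0.72 to 1.25) and -0.01 (-0.30 to 0.29). A UMI of Ly6d was seen in 25 of 36 anti-PD-1 cells, 20 of 29 anti-CTLA-4 cells, 22 of 35 combination cells and 37 of 57 control cells. In all other cells the Ly6d level was below control in each antibody library, with log2 ratios of -1.07, -1.08 and -1.60. Ly6c2, a monocyte and plasmacytoid surface antigen whose family holds near-identical genes, had a log2 ratio of 0.41 (0.22 to 0.60) after anti-PD-1, 0.07 (-0.15 to 0.29) after anti-CTLA-4 and -0.45 (-0.70 to -0.21) with both. Without the 28 cells the Ly6c2 ratios were 0.07 (-0.14 to 0.28), -0.30 (-0.54 to -0.06) and -0.99 (-1.26 to -0.73), and in all other cells they were 0.71, 0.97 and 0.74.

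Few secretory genes were called in any antibody library, as were few of all genes. Of 28 secretory genes compared, 2 were called higher and 0 lower after anti-PD-1, 0 and 1 after anti-CTLA-4, and 1 and 0 with both antibodies. Of all genes, 7.38% were called higher and 9.31% lower after anti-PD-1, 5.89% and 9.02% after anti-CTLA-4, and 7.27% and 9.51% with both. The list is too small to tell its counts apart from those shares. Xbp1 was the gene called with both antibodies. Its log2 ratio to control was 0.38 (-0.12 to 0.86) after anti-PD-1, 0.82 (0.34 to 1.28) after anti-CTLA-4 and 1.13 (0.69 to 1.57) with both. Without the 28 cells the ratios were -0.07 (-0.62 to 0.47), 0.34 (-0.19 to 0.88) and 0.63 (0.15 to 1.12). Of 21 interferon-stimulated genes compared for the combination, 2 were called higher and 6 lower, where 7.27% and 9.51% of all genes were. Without the 28 cells, 1 of 12 was higher and 2 lower. Isg15 had 7 UMIs with both antibodies and 50 in control, a log2 ratio of -1.64 (-3.11 to -0.58). The Isg15 ratio was -0.31 (-1.14 to 0.43) after anti-PD-1 and 0.08 (-0.72 to 0.80) after anti-CTLA-4. In all other cells Isg15 was above control in every antibody library, with log2 ratios of 0.52, 0.60 and 0.22.

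**Figure D5:**
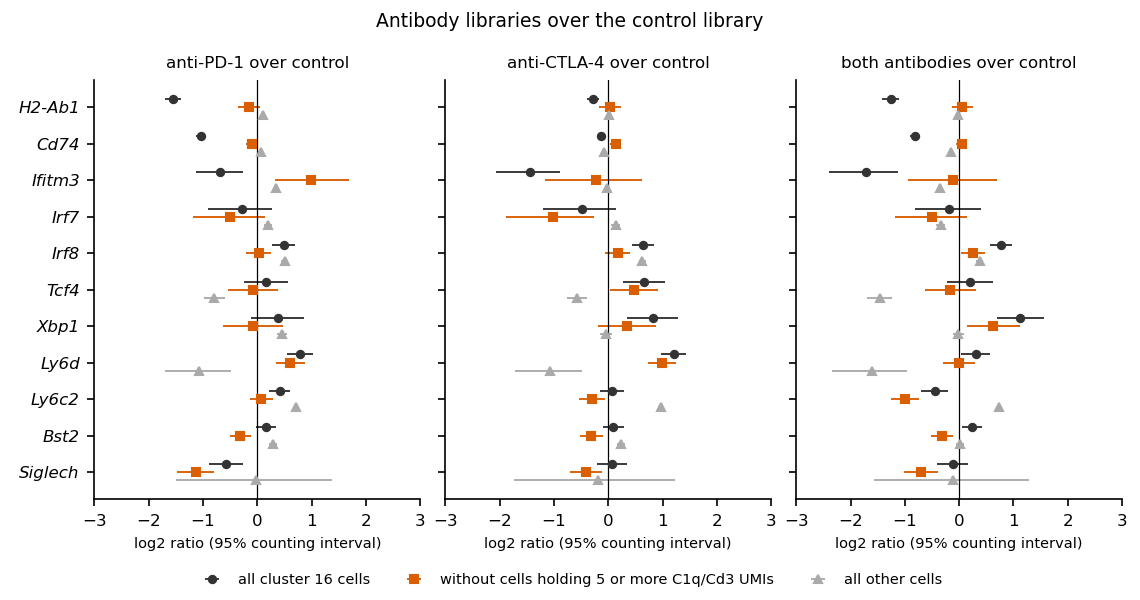
Log2 ratio to the control library in cluster 16 for key genes, with exact 95% intervals that cover counting error only, for all members, without the 28 cells with RNA of another type, and in all other cells. H2-Ab1 after anti-PD-1 lies at -1.55 with all members and at -0.15 without those cells, while Ly6d after anti-CTLA-4 lies at 1.20 and 0.98.

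The highest ratios to control came from single cells. All 5 of the leading genes in each antibody library had most of their UMIs in 1 cell, at least 73.0% after anti-PD-1, 93.9% after anti-CTLA-4 and 96.3% with both antibodies. Gcc1, which encodes a Golgi coiled-coil protein, had 44 UMIs after anti-PD-1 and 1 in control, and Nupl1, which encodes a nucleoporin, had 65 UMIs after anti-CTLA-4 and 1 in control. Across cluster 16, 30 genes had at least 20 UMIs in 1 cell and at least 80% of the cluster's UMIs in it, in 29 different cells, and the highest such count was 65.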

How the data were processed

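Live CD45+ cells sorted from collagenase-digested tumours were captured with the 10x Chromium Single Cell 3′ v1 chemistry, 1 library per antibody group. The authors deposited raw UMI counts for 27998 genes and tables of cluster numbers. Cell Ranger, Seurat and the mm10 build are named, per the submitters' processing notes, and no version is given in the sources read here. Of 14618 barcodes, 14491 are listed in the table of CD45+ cells and were used. The 127 others and 2 listed cells without a matrix column were left out. No doublet caller was run.

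UMI counts were summed per library and cluster and scaled to the sum (CPM). Cluster 16 was compared with all other listed cells and with clusters 11 and 17 by the mean log2 ratio over 4 libraries, with 10 CPM added. Antibody libraries were compared with control by a log2 ratio with 0.5 added to each count and an exact conditional binomial 95% interval, which covers counting error only. Genes needed 20 UMIs, and a call needed a 2-fold difference. No p-value was computed. Some genes are counted within their lists but not reported by name here. Procedures were checked on simulated data. Genes named in the text were drawn, not in full, from ranked genes, a fixed set of key genes, and up to 4 genes of each of 29 gene lists. Ranked genes against all other cells were the 20 highest and 10 lowest. Against clusters 11 and 17 they were the 10 highest and 10 lowest, and for each antibody the 5 highest and 5 lowest. A detection minimum of 25% of cells applied only to the ranked genes between clusters. Other named genes (such as Ctsl, Spcs2, Cd47, Ifnar1, Dntt and Trim30a) were chosen after their values were seen. The members and lists were chosen with earlier results of these data known. Promoters came from RefSeq (GRCm38.p6). Alternatives were other added values, minimum counts, scalings, thinning to 1000 UMIs, a marker gate, and leaving out libraries or cells. Python 3.11.15, numpy 2.4.6, scipy 1.17.1 and pandas 2.3.3 were used.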

Additional observations from a re-analysis of the deposited data

Results flagged for a closer look

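Ly6d was higher in cluster 16 than in the control library in every antibody library, with log2 ratios of 0.79 (anti-PD-1), 1.20 (anti-CTLA-4) and 0.31 (both antibodies). In all other listed cells it was lower than in control in every antibody library (-1.07, -1.08 and -1.60). It was singled out because the 2 sets of cells moved in opposite directions. The difference between them was not tested, and without the 28 cells that held RNA of another type the combination value was -0.01.

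One barcode of the anti-PD-1 library that the authors' table does not list held 12 Siglech UMIs among 12920 UMIs and 3184 genes. It was singled out because Siglech signal appeared outside the cells compared. Of the 127 barcodes not listed, 2 had a Siglech UMI.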

How the results depend on the processing

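No paired analysis was possible because each group was 1 library. The marker gate took members with at least 2 Siglech UMIs and no C1q or Cd3 UMI. The ratios of the cluster 16 share to control stayed inside their counting intervals in every alternative run. The shares themselves did not: under the marker gate they were 0.293% after anti-PD-1, 0.360% after anti-CTLA-4, 0.330% with both and 0.395% in control, and without the 28 cells the control share was 1.00%. The gate ratios to control were 0.740 (0.297 to 1.76), 0.910 (0.389 to 2.08) and 0.833 (0.365 to 1.88). Each of these intervals reached above 1. Leaving out 1 library at a time moved no count of called genes past 1.5 times. Against all other cells, higher and lower genes numbered 846 and 2105 with 1 CPM added and 237 and 212 with 50 CPM added, and lower genes 1180 with cells thinned to 1000 UMIs and 1236 among members without a C1q or Cd3 UMI. Against cluster 11 they numbered 235 and 123 with 50 CPM added and 276 and 197 at a minimum of 100 UMIs, and lower genes 810 among members without a C1q or Cd3 UMI. Against cluster 17 they numbered 432 and 271 with 50 CPM added and 331 and 191 at a minimum of 100 UMIs.

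For anti-PD-1 the counts of higher and lower genes were 449 and 525 at a minimum of 10 UMIs, 63 and 83 at 50 UMIs, 54 and 54 with thinned cells, 66 and 45 without C1q or Cd3 UMIs, 61 and 45 under the marker gate, 112 and 96 without the 28 cells, and 77 and 150 without the cell with the most UMIs of each gene. For anti-CTLA-4 they were 337 and 470, 56 and 69, 44 and 57, 58 and 51, and 53 and 41 in the first 5 of those settings, with 101 lower without the 28 cells and 42 higher without the top cell. For the combination they were 402 and 488, 60 and 79, 51 and 59, 77 and 54, and 63 and 46, with 107 lower without the 28 cells and 57 higher without the top cell.

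A sign counted as turned round only if the main value was called between clusters or had an interval against control that excluded 0. For lists, the main median had to be at least 1 in size. Signs turned round by this rule as follows, and the cause was not tested. Other sign changes are not counted, such as those of Siglech after anti-CTLA-4 and Xbp1 after anti-PD-1 without the 28 cells. List medians against control had no minimum count among the remaining cells. A gene with equal counts in both libraries, such as 0 and 0, then returns the ratio of the library totals. List values below that are the same for several lists are that ratio and show no expression difference. The macrophage list value of 0.15 after anti-PD-1 without the 28 cells is that ratio too. Other list values against control, such as those of the T cell list after anti-CTLA-4, may also be that ratio. Leaving out cells by their C1q or Cd3 UMIs also lowers those genes by selection. Between clusters, the T cell list against cluster 11 had a median of 1.21 with all members and -0.43 without C1q or Cd3 UMIs. The macrophage list against cluster 17 had 1.18 with all members, -0.99 without C1q or Cd3 UMIs and -0.17 without the 28 cells. For anti-PD-1 without C1q or Cd3 UMIs, Runx2 was -0.078, Ly6c2 -0.072, H2-Ab1 0.097 and Ifitm3 1.02, and the transitional, macrophage and neutrophil lists 0.17 each. Under the marker gate they were -0.89, -0.36, 0.22, 0.67 and 0.47 each. With the 28 cells left out Ifitm3 was 0.99 and the macrophage list 0.15. For anti-CTLA-4, Mzb1 was -0.12 with thinned cells, the T cell list 0.10 without C1q or Cd3 UMIs and 0.29 under the gate, and H2-Ab1 0.038 and Cd74 0.14 without the 28 cells. For the combination, Ly6d was -0.056 with thinned cells. Without C1q or Cd3 UMIs, Bst2 was -0.31, Ly6d -0.26, Cd74 0.037 and Ifitm3 0.018. Under the gate, Irf8 was -0.081, H2-Ab1 0.19, Cd74 0.16, Ifitm3 0.55, and the transitional and macrophage lists 0.34 each. Once the 28 cells were left out, Bst2 was -0.32, Ly6d -0.0072, Lag3 -0.11, H2-Ab1 0.057, Cd74 0.047 and the macrophage list 0.083. Among single genes and lists, 4998 values stayed within the spread or counting interval of the main value. Another 783 moved outside it, and 41 turned round by the rule above. Settings that changed only the minimum count could not alter these values. They gave 323 of the unchanged values without a minimum, 323 at 100 UMIs, 170 at 10 UMIs and 170 at 50 UMIs. Leaving out the 28 cells was chosen after seeing the data.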

Other observations

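Several genes known from lymphoid cells were high in cluster 16. Cd7, a surface protein of T and natural killer cells, had 912, 1120.4, 813 and 655 CPM in cluster 16 (anti-PD-1, anti-CTLA-4, combination and control), against 59.5, 54.1, 44.4 and 73.0 CPM in all other cells, a log2 ratio of 3.70. Il7r, the receptor for interleukin 7, had 376, 249, 265 and 245 CPM, against 16.4, 27.0, 13.8 and 37.7 CPM in cluster 11 (log2 ratio 3.16). Cd79b, a chain of the B cell receptor complex, had 80.02, 57.5, 82.2 and 46.5 CPM, against 3.17, 3.69, 2.39 and 6.32 CPM in all other cells (log2 ratio 2.44). All 3 genes lay above the other cells in all 4 libraries, while Cd79a, Ms4a1 and Pax5 had no UMI in cluster 16.

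Plac8, a cysteine-rich protein of plasmacytoid cells and other leukocytes, had 7161, 7795, 6703 and 4546 CPM in cluster 16, against 84.6, 855, 754 and 191 CPM in cluster 17 (log2 ratio 4.26). Rnase6, a secreted ribonuclease, had 1752, 1542, 1562 and 1580.0 CPM, against 329.9, 336, 235 and 429 CPM in cluster 11 (log2 ratio 2.27). Lair1, an inhibitory collagen receptor, had 408, 479, 858 and 414 CPM, against 27.3, 30.0, 27.6 and 35.2 CPM in cluster 11 (log2 ratio 3.72). The groups did not overlap for any of these 3 genes.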
